A study of Homo sapiens with 24 samples.

Results

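The respiratory chain subunit genes are the nuclear genes that encode the building blocks of the 5 complexes of oxidative phosphorylation. They were chosen by gene name alone, as the protein-coding genes of the hg19 annotation whose symbols begin with NDUFA, NDUFB, NDUFC, NDUFS, or NDUFV plus a digit (complex I), with UQCR (complex III), with COX4 to COX8 (complex IV), or with ATP5F1, ATP5M, or ATP5P (complex V), together with SDHA to SDHD (complex II). This gave 88 of 20098 protein-coding genes on chromosomes 1 to 22 and X. By prefix, 39 were counted under complex I, 4 under II, 9 under III, 17 under IV, and 19 under V. The prefix was not checked against the complex of the protein, so that NDUFA4 and NDUFA4L2 stand under complex I by name alone. Among the 88 are 2 read-through loci, ATP5MF-PTCD1 and NDUFC2-KCTD14, which share their start sites with ATP5MF and NDUFC2 and repeat the peaks of these genes.

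The cells were MCF-10A–ER-Src, a nontransformed mammary epithelial line that carries a v-Src oncogene fused to the ligand-binding domain of the estrogen receptor. For the ChIP with an antibody to Flag, they stably expressed S100A8-Flag or S100A9-Flag from a retroviral vector under hygromycin selection, and were kept for 24 hours in 1 μM 4-hydroxytamoxifen (TAM), which activates the fusion kinase, or in ethanol (EtOH). All groups therefore carried the ER-Src fusion and an introduced, tagged S100 protein, and chromatin was fixed with protein-protein cross-linkers before formaldehyde in all of them. Peak lists of 11 libraries were used, from 2 EtOH and 3 TAM replicates of S100A8-Flag and from 3 replicates of S100A9-Flag in either treatment. ChIP from cells without the tag was not analyzed here. The question addressed is where these proteins, which are small calcium-binding members of the S100 family best known as the secreted alarmin calprotectin, are cross-linked along the genome, and whether this changes upon transformation.

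The respiratory chain passes electrons from NADH and succinate through complexes I and II to ubiquinone, then through complex III and cytochrome c to complex IV, where oxygen is reduced, and complex V uses the resulting proton gradient to make ATP. A small set of subunits is encoded in mitochondrial DNA, and nuclear genes encode the rest, most of which are described here. Their promoters are mostly CpG-rich and are textbook targets of the factor NRF1, of the ETS factor GABP, and of YY1. Most subunits are made in nearly all cells, whereas a few have paralogs that are used in muscle, testis, lung, or under hypoxia.

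A gene was counted as called in a library when a peak with a false discovery rate q of 1e-07 or less (−log10 q of at least 7) had its summit no more than 1500 bp before and 250 bp after a transcription start site (TSS) of the gene. Taken over all complexes, respiratory chain genes were called more often than protein-coding genes in general. In EtOH, 18 and 18 of the 88 genes were called in the libraries of S100A8-Flag, and 12, 5, and 16 in those of S100A9-Flag. In the same libraries, 11.3, 12.2, 9.83, 5.97, and 11.4% of all protein-coding genes were called. In TAM, the number of called respiratory chain genes was 50, 53, and 41 with S100A8-Flag and 54, 57, and 69 with S100A9-Flag, against 40.0, 35.5, 33.3, 37.7, 38.6, and 49.0% of all genes. The mean over the TAM libraries was thus 61.4% ± 10.4 of the subunit genes (SD, n = 6) and that over the EtOH libraries 15.7% ± 6.24 (SD, n = 5), where 39.0% ± 5.43 and 10.1% ± 2.48 of all genes were called. The share of subunit genes exceeded that of all genes in 10 of 11 libraries, the exception being S100A9-Flag in EtOH, replicate 2, with 5.68%. Every TAM library called more subunit genes than any EtOH library, as was the case for all genes.

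The lists themselves differ in length, with 9578 to 34653 peaks per EtOH library and 53439 to 109500 per TAM library, of which 1853 to 4609 and 21518 to 40735 had q ≤ 1e-07. The depth of the libraries is unknown, and fewer calls in EtOH cannot be told apart from a lower depth by these lists. When only the 1853 peaks with the lowest q values were taken from each library, 8.33 ± 2.5 subunit genes were called per TAM library (SD, n = 6) and 7.8 ± 1.92 per EtOH library (SD, n = 5), a difference smaller than the spread between libraries. In TAM this was 9.47% of the subunit genes and 4.61% of all genes, and in EtOH 8.86% and 5.58%, with the subunit genes above all genes in 10 of 11 libraries. With lists of equal length, the number of called subunit genes thus no longer differed between treatments by more than the spread, whereas their share was still above that of other genes.

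**Figure D1:**
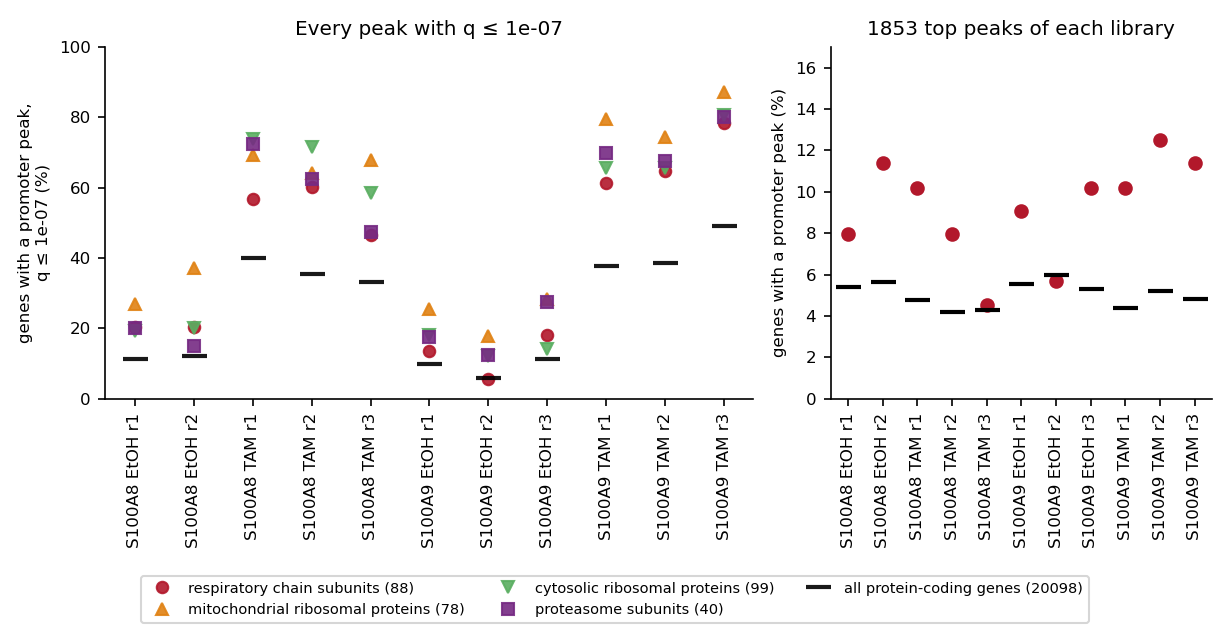
Share of genes with a promoter peak in each library (x axis; r, replicate), with every peak of q ≤ 1e-07 at left and the 1853 top peaks of each library at right (y axes in percent). Circles, the 88 respiratory chain subunit genes; bars, all 20098 protein-coding genes; at left, also mitochondrial and cytosolic ribosomal protein genes and proteasome genes. The subunit genes lie between 5.68 and 20.5% in EtOH and between 46.6 and 78.4% in TAM at left, and no such step is seen at right.

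Genes for other large housekeeping complexes were called at similar or higher shares. The share was 27.2% ± 6.87 in EtOH and 73.7% ± 8.49 in TAM for the 78 mitochondrial ribosomal proteins, 16.8% ± 3.47 and 69.4% ± 7.74 for the 99 cytosolic ribosomal proteins, and 18.5% ± 5.76 and 66.7% ± 11 for the 40 proteasome subunits (SD, n = 5 and 6). Mitochondrial ribosomal protein genes were called at a higher share than respiratory chain genes in 11 of 11 libraries, cytosolic ribosomal protein genes in 8, and proteasome genes in 9. Subunit genes also have CpG-rich promoters. From 250 bp upstream to 50 bp downstream of the annotated canonical TSS, 79 of the 88 subunit genes (89.8%) had a ratio of observed to expected CpG of at least 0.6, against 67.0% of all genes. Among genes above this ratio, the share called in TAM was 65.6% ± 10.3 for subunit genes and 52.0% ± 7.14 for all genes, and in EtOH 16.7% ± 7.13 and 13.9% ± 3.37 (SD, n = 6 and 5). The gap between subunit genes and all genes was therefore narrower among CpG-rich promoters. In EtOH it was smaller than the SD of the subunit share, both there and over all promoters. Both shares come from the same libraries, however, so that this SD does not measure the spread of the gap, which was not tested.

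Subunit genes also share promoters with neighbors more often than other genes do. For 31 of the 88 (35.2%), a TSS of a protein-coding gene on the opposite strand lies from 1000 bp upstream to 250 bp downstream of their own, as for 14.7% of all genes. Subunit genes with such a partner were called at 66.7% ± 13.0 in TAM, and all genes with a partner at 64.2% ± 7.56. Without a partner, the values were 58.5% ± 9.13 for the 57 subunit genes and 34.7% ± 5.07 for all genes (SD, n = 6). The peak of a shared promoter counts for both of its genes here, and for 32 subunit genes at least 1 of their calls lies nearer to the TSS of another protein-coding gene. If a peak is given only to the gene with the nearest TSS, an assignment added after the data were seen, 40.2 subunit genes per TAM library remain. The share of all genes under this assignment is not given here, so that this count cannot be set against the shares of all genes above.

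The −log10 q values of the subunit genes show that calls were spread over all 5 complexes and rarely restricted to single genes. Of the 88 genes, 41 (46.6%) were called in at least 1 EtOH library, as were 29.0% of all genes. In at least 1 TAM library 79 were called, as were 60.6% of all genes. Called genes comprised 39 with calls in both treatments, 40 in TAM libraries only, and 2 in EtOH libraries only. The other 7 were called in none, where 38.9% of all genes were called in none. Shares of all genes for the split by treatment are not given here, so that this split does not set subunit genes apart. In all 6 TAM libraries, 21 subunit genes (23.9%) were called, and 13.9% of all genes were. Calls in at least 2 replicates of a condition were also counted, whether or not the summits coincided. This rule asks for 2 of 2 replicates of S100A8-Flag in EtOH and for 2 of 3 in the other conditions. Such calls were found at 6 subunit genes for S100A8-Flag in EtOH (4.61% of all genes) and 48 in TAM (36.7%). For S100A9-Flag, they were found at 6 in EtOH (5.69%) and 65 in TAM (43.0%). As a share of the 88, these are 6.82, 54.5, 6.82, and 73.9%. With 1 of 3 replicates left out, a call was needed in each of the 2 that remained. The count fell to 31 without replicate 1 and 32 without replicate 2 of S100A8-Flag in TAM. It fell to 2 without replicate 1 or 3 of S100A9-Flag in EtOH, and to 40 without replicate 3 of S100A9-Flag in TAM.

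**Figure D2:**
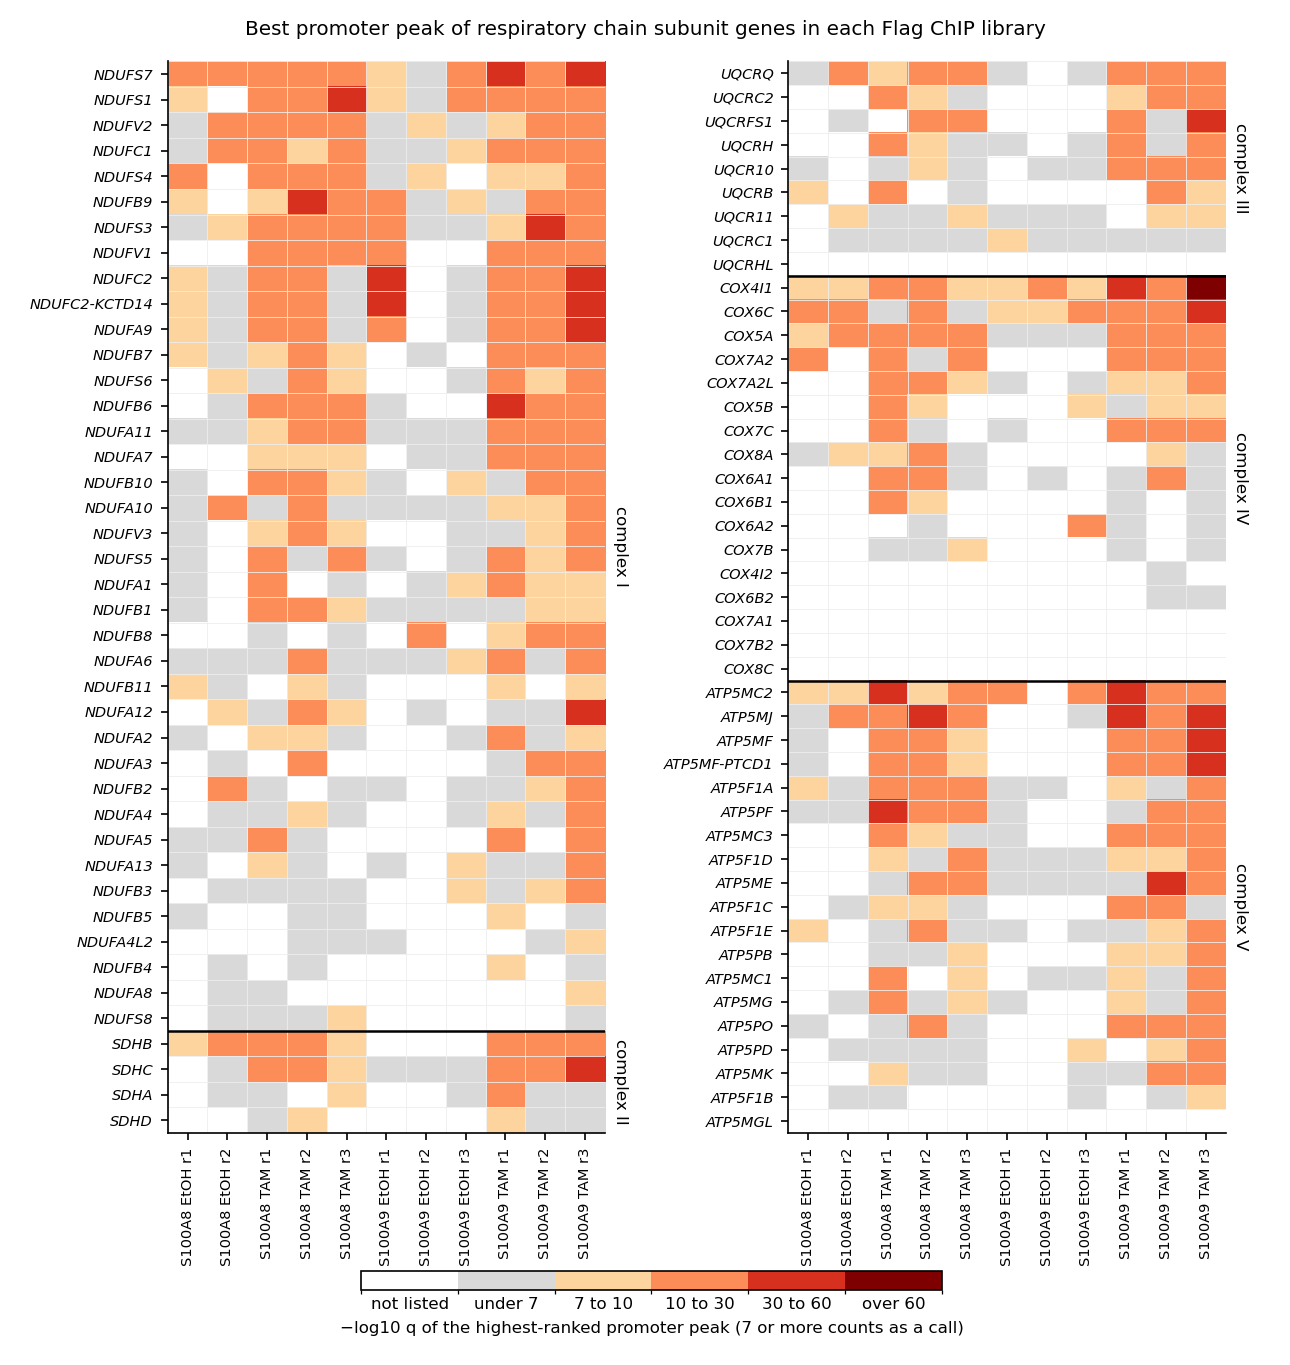
Highest −log10 q of a promoter peak for 87 of the 88 subunit genes (rows, by complex and then by number of libraries called) in the 11 libraries (columns; r, replicate). White, no peak listed; gray, a listed peak under 7; yellow to dark red, called. Calls are sparse in the EtOH columns and dense in the TAM columns, and the 7 genes called in none stand at the foot of complexes III, IV, and V.

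Complex I, the NADH dehydrogenase and largest of the complexes, had no uncalled gene among those counted under it by name. These 39 genes were called at 67.5% ± 14.5 in TAM libraries (SD, n = 6) against 20.0% ± 7.12 in EtOH (SD, n = 5). Of them, 11 were called in each TAM library. Core subunits, which hold the flavin, the iron-sulfur clusters, and the ubiquinone site and are conserved from bacteria, had a higher mean share than the accessory subunits that surround them. The 7 nuclear core genes reached 40.0% ± 18.6 in EtOH and 81.0% ± 7.38 in TAM. The other 32 genes with an NDUF symbol reached 15.6% ± 6.63 and 64.6% ± 17.3. The ranges of these shares overlapped in both treatments, from 14.3 to 57.1% against 6.25 to 21.9% in EtOH and from 71.4 to 85.7% against 40.6 to 93.8% in TAM.

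NDUFS7 (chr19:1383526-1395588), which carries the iron-sulfur cluster next to the ubiquinone site, was called in 10 of 11 libraries. The −log10 q of its promoter peak was 11.5 and 15.0 in the 2 EtOH libraries of S100A8-Flag and 8.19, 5.24, and 10.2 in the 3 of S100A9-Flag. In TAM it was 23.4, 17.2, and 17.2 with S100A8-Flag and 47.7, 17.7, and 42.9 with S100A9-Flag. Its TAM values were all above its EtOH values, but a −log10 q grows with the number of reads, and the difference in its rank among all genes, tested by exact permutation of the libraries, was within the spread (two-sided p = 0.80). The summits lay from 78 bp upstream to 52 bp downstream of the TSS in called libraries.

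NDUFS1 (chr2:206979541-207024233), the largest core subunit, was called in 9 libraries. Its −log10 q was 26.6, 26.5, and 30.2 with S100A8-Flag in TAM and 16.1, 27.7, and 16.8 with S100A9-Flag in TAM. In EtOH the values were 7.05 in replicate 1 of S100A8-Flag, 9.20 and 10.2 in replicates 1 and 3 of S100A9-Flag, and 2.00 in replicate 2 of S100A9-Flag, and no peak was listed in replicate 2 of S100A8-Flag. The value of 7.05, with a fold enrichment of 7.28 over input, is the nearest to the threshold among EtOH calls of subunit genes, and just outside it stood NDUFA9, a subunit near the ubiquinone site, with 6.92 and a fold enrichment of 5.31 in replicate 3 of S100A9-Flag. NDUFS1 shares its promoter with EEF1B2, which encodes a translation elongation factor and starts 76 bp upstream on the other strand.

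NDUFV1 and NDUFV2 form the NADH-binding tip of complex I with NDUFS1. NDUFV1 (chr11:67373124-67380025) had −log10 q values of 17.7, 19.4, and 12.5 with S100A8-Flag in TAM and 19.9, 20.5, and 23.8 with S100A9-Flag in TAM. A peak was listed in only 1 EtOH library, replicate 1 of S100A9-Flag, with 11.2. NDUFV2 was called in 8 libraries, 6 of them TAM, with values from 8.53 to 26.5 in TAM, 14.1 in replicate 2 of S100A8-Flag in EtOH, and 7.29 in replicate 2 of S100A9-Flag in EtOH. The other core subunits differed among themselves, since NDUFS3 was called in 8 libraries and NDUFS8 in only 1. The NDUFS8 promoter had listed peaks in 5 libraries with values from 4.57 to 7.05, the highest being replicate 3 of S100A8-Flag in TAM. Of the accessory subunits, NDUFC1, NDUFS4, and NDUFB9 were called in 8 libraries each. The summits at NDUFC1 lay 120 to 965 bp upstream of its own TSS, toward the start of NAA15 on the other strand, and the best summit was nearest to NDUFC1 in 1 library and to NAA15 in 7.

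Complex II, succinate dehydrogenase, links the citric acid cycle to the chain and is encoded wholly in the nucleus. Its iron-sulfur subunit gene SDHB (chr1:17345159-17380527) was called in 8 libraries. Its −log10 q was 7.73 and 14.0 with S100A8-Flag in EtOH, 10, 13.0, and 8.88 with S100A8-Flag in TAM, and 11.7, 17.7, and 17.3 with S100A9-Flag in TAM, while none of the 3 libraries of S100A9-Flag in EtOH listed a peak. In replicates 2 and 3 of S100A8-Flag in TAM the best peak lay 1267 bp upstream of a TSS, and in the other called libraries 30 to 87 bp upstream. The membrane anchor gene SDHC (chr1:161284171-161332996) was called in each TAM library, with 15.7, 13.6, and 7.68 for S100A8-Flag and 11, 16.4, and 36.2 for S100A9-Flag, and in no EtOH library, where the highest value was 4.19. The flavoprotein SDHA and the other anchor SDHD were called in 2 TAM libraries each, SDHA with 8.02 and 12.3 and SDHD with 9.35 and 8.82. The 4 genes of one complex, whose products occur in equal numbers, were thus called in 8, 6, 2, and 2 libraries for SDHB, SDHC, SDHA, and SDHD, while peaks of any q were listed in 8, 10, 7, and 5.

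Complex III was called least often in TAM apart from complex IV, at 8.89% ± 9.30 in EtOH and 53.7% ± 14.8 in TAM. UQCRFS1 (chr19:29696227-29704058), the Rieske iron-sulfur protein, was called in only 4 libraries, but its peaks ranked highest of all subunit genes. Among all peaks of q ≤ 1e-07 in the same library, their mean percentile by fold enrichment was 91.1. Their −log10 q was 21.9 and 14.0 in replicates 2 and 3 of S100A8-Flag in TAM and 14.9 and 31.1 in replicates 1 and 3 of S100A9-Flag in TAM, and no peak was listed in replicate 1 of S100A8-Flag in TAM. UQCRC2, a core protein of the matrix side, was called in 5 TAM libraries and had no listed peak in EtOH. UQCRC1, its close relative, was called in 1 library only, replicate 1 of S100A9-Flag in EtOH, with 7.06, although peaks of 2.57 to 6.28 were listed in 9 more.

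Complex IV, cytochrome c oxidase, was called at 18.8% ± 6.44 in EtOH and 43.1% ± 9.61 in TAM, the latter near the 39.0% ± 5.43 of all genes. COX4I1 (chr16:85832239-85840674), the subunit through which ATP is known to regulate the enzyme, was the only subunit gene called in all 11 libraries. Its −log10 q was 7.98 and 9.33 with S100A8-Flag in EtOH, 7.92, 18.5, and 7.98 with S100A9-Flag in EtOH, 17.4, 14.5, and 9.24 with S100A8-Flag in TAM, and 37.9, 19.3, and 76.7 with S100A9-Flag in TAM. The groups of EtOH and TAM libraries overlapped, the EtOH value of 18.5 being above 3 of the TAM values. EMC8, which encodes a membrane protein insertase subunit, starts 75 bp upstream on the other strand, and the best summit was nearer to the TSS of EMC8 in all 11 libraries, so that the peak cannot be assigned to one of the genes. COX6C was called in all 5 EtOH libraries, with 13.4 and 23.2 for S100A8-Flag and 8.19, 8.36, and 11.2 for S100A9-Flag, but in 4 of 6 TAM libraries, the values of 3.83 and 3.26 in replicates 1 and 3 of S100A8-Flag lying under the threshold. COX4I1 and COX6C were the 2 subunit genes called in every EtOH library, as were 0.577% of all genes. COX5A, which contacts COX4I1, was called in 8 libraries.

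The low share of complex IV comes with its paralogs. The 8 tissue-restricted paralogs, 6 of which have a COX symbol, were called at 2.50% ± 5.59 in EtOH and 2.08% ± 5.10 in TAM. Their widely expressed partners were called at 17.5% ± 6.85 and 56.2% ± 15.3. COX7A1 (the heart and muscle form), COX7B2, COX8C (both testis forms), and UQCRHL, an intronless copy of UQCRH, had no listed peak at any q. The lung form COX4I2 had 1 listed peak of −log10 q 4.83, and COX6B2, of testis, had 2 of up to 5.78. The muscle form COX6A2 was called in 1 library, replicate 3 of S100A9-Flag in EtOH, with 11.8, and the hypoxia-induced NDUFA4L2 in 1, with 8.45. ATP5MGL, a copy of the complex V gene ATP5MG, is the remaining gene called in no library. Reads were kept only if they mapped to a single place, so that peaks over near-identical copies such as UQCRHL and UQCRH are uncertain.

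Each partner was listed in more libraries than its paralog. COX7A2 was called in 6 libraries, COX8A and UQCRH in 4, COX6A1 and NDUFA4 in 3, COX6B1 in 2, and COX7B in 1. Their highest −log10 q values were 29.2 for COX7A2, 11.3 for COX8A, 23.7 for UQCRH, 11.7 for COX6A1, 21.0 for NDUFA4, 15.0 for COX6B1, and 8.16 for COX7B. The best summit at UQCRH was nearer to the TSS of LRRC41, on the other strand, in all 4 libraries that called it. Without the 6 paralogs, the 11 remaining genes of complex IV were called at 27.3% ± 9.09 in EtOH and 66.7% ± 14.8 in TAM, where complex I stood at 20.0 and 67.5%. Of the 7 subunit genes called in no library, 4 had a promoter CpG ratio under 0.6, as had 9 of all 88.

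**Figure D3:**
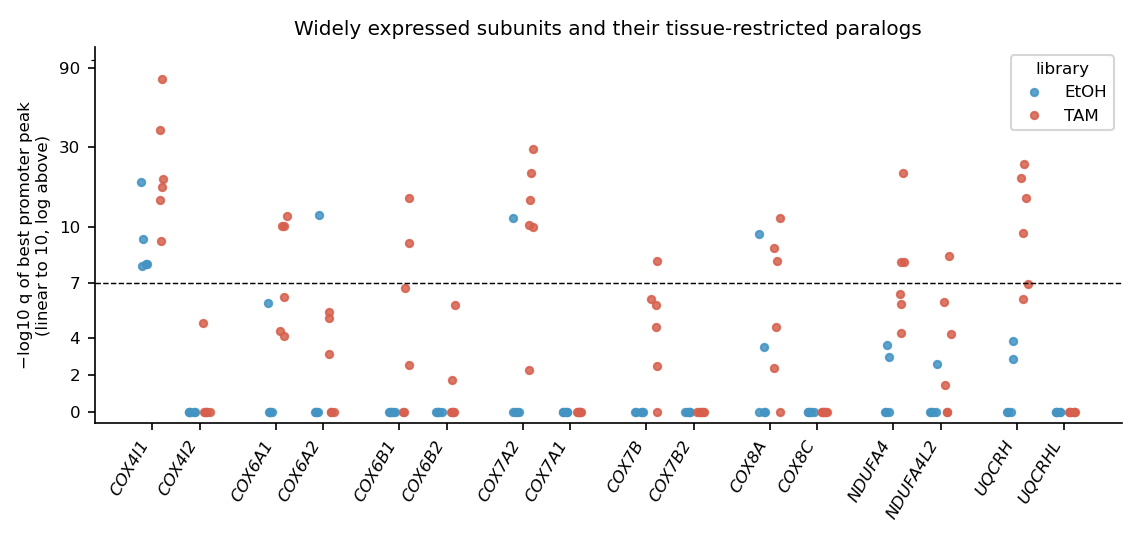
Highest −log10 q of a promoter peak (y axis, linear up to 10 and logarithmic above) for 8 widely expressed subunit genes, each followed at its right by the tissue-restricted paralog, with 1 point per library (blue, EtOH, n = 5; red, TAM, n = 6; 0, no peak listed). The dashed line marks the call at 7, which 2 points of the paralogs exceed, 1 each of COX6A2 and NDUFA4L2.

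Complex V, the ATP synthase, was called at 8.42% ± 6.0 in EtOH and 67.5% ± 12.2 in TAM. In EtOH complexes III and V were therefore not called more often than the 10.1% of all genes. The 3 genes ATP5MC1, ATP5MC2, and ATP5MC3 encode the identical mature protein of the rotating c ring, with different import sequences. ATP5MC2 (chr12:54026510-54071192) was called in 10 libraries, with −log10 q of 8.63 and 7.79 for S100A8-Flag and 13.1 and 11.8 for replicates 1 and 3 of S100A9-Flag in EtOH, 52.0, 7.93, and 16.6 for S100A8-Flag in TAM, and 37.7, 14.9, and 26.4 for S100A9-Flag in TAM. ATP5MC3 was called in 5 TAM libraries with values from 7.99 to 15.7, and ATP5MC1 in 4 with values from 9.24 to 15.5, and neither was called in EtOH. ATP5MJ, a small membrane subunit, was called in each TAM library with values from 13.2 to 35.0 and in 1 EtOH library, with a mean percentile of 85.1, next to UQCRFS1 among subunit genes called in at least 2 libraries. ATP5F1B, the catalytic β subunit, was called in 1 library only.

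The upstream sequences of 8 subunit genes are shown because they span the range of calls, from ATP5MC2 with 10 to COX7A1 with none. They are read from the hg19 reference 5′ to 3′ on the strand of the gene, upstream of the canonical TSS, and hold no annotated exon. Of the 10 best called summits of ATP5MC2, 0 lie in its printed stretch, so that its marked match is not at a summit. For the other called genes, the count inside is 6 of 8 for SDHB, 5 of 8 for NDUFS3, and 7 of 7 for NDUFB7 and ATP5MJ. It is 3 of 4 for UQCRFS1 and 1 of 1 for NDUFB4. Capitals mark exact matches, on either strand, to the motif letters CGGAAG (ETS), GCGCATGC (NRF1), CCCCGCCC (KLF/SP1), TGACGTCA (CREB), ATGGCGGC (YY1), ACTACAAT (THAP11), and CTCGCGAG (ZBTB33).
ATP5MC2, chr12:54069868-54069959, minus strand, 10 libraries, 1 NRF1 match: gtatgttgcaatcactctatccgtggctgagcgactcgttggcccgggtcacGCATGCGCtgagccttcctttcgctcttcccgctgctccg
SDHB, chr1:17380528-17380727, minus strand, 8 libraries, 1 NRF1 and 1 ETS match: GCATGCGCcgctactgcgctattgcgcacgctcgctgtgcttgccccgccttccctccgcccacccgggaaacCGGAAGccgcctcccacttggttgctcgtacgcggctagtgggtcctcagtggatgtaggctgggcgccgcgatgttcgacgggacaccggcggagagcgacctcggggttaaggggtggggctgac
NDUFS3, chr11:47600529-47600580, plus strand, 8 libraries, 2 ETS matches: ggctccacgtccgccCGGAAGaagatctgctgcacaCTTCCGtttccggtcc
NDUFB7, chr19:14682879-14683078, minus strand, 7 libraries, 1 KLF/SP1 and 1 ETS match: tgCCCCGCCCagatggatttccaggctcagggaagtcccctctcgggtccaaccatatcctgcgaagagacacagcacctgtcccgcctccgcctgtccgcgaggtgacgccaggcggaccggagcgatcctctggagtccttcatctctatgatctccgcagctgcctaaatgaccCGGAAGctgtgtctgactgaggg
ATP5MJ, chr14:104387904-104388066, minus strand, 7 libraries, 1 KLF/SP1 and 1 ETS match: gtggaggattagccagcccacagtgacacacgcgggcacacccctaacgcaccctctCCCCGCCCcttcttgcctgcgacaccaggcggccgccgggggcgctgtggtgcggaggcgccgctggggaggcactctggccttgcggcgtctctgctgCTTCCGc
UQCRFS1, chr19:29704059-29704141, minus strand, 4 libraries, no match: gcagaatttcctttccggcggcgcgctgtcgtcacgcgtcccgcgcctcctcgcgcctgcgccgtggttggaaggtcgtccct
NDUFB4, chr3:120314983-120315174, plus strand, 1 library, 2 overlapping NRF1 matches: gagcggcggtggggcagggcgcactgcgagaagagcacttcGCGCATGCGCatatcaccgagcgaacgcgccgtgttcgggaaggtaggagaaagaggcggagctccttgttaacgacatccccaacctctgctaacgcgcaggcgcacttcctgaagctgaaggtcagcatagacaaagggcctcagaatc
COX7A1, chr19:36643352-36643549, minus strand, no library, no match: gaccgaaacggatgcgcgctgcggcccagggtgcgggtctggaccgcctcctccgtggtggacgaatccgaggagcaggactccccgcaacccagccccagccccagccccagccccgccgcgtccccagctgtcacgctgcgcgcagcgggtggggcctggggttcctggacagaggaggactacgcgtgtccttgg

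Matches to the letters of 3 textbook regulators were more frequent at subunit genes than at other genes. From 250 bp upstream to 50 bp downstream of the canonical TSS, the ETS letters occurred at 34 of 88 subunit genes (38.6%) and at 25.2% of all protein-coding genes, the NRF1 letters at 13 (14.8%) and 4.24%, and the YY1 letters at 14 (15.9%) and 4.56%. The KLF/SP1 letters were less frequent, at 16 subunit genes (18.2%) against 33.8% of all genes. The CREB, THAP11, and ZBTB33 letters occurred at 5, 1, and 2 subunit genes (5.68, 1.14, and 2.27%), against 2.69, 0.672, and 1.45% of all genes. Of the 88, 30 (34.1%) had no match to any of the 7, against 45.3% of all genes. Among the 21 subunit genes called in each TAM library, 9 (42.9%) had ETS, 3 (14.3%) NRF1, and 5 (23.8%) YY1 letters, where 38.4, 5.28, and 7.33% of all genes called in each TAM library had them. At single genes a match and a call could part, as NDUFB4, with 2 overlapping NRF1 matches, was called in a single library, and UQCRFS1, whose peaks ranked highest, had no ETS, NRF1, or YY1 match in this window but 2 matches to the KLF/SP1 letters. Within 100 bp of the highest-ranked summit of the 81 called subunit genes, the ETS letters occurred at 29.6%, against 28.0% at the 12274 called genes in all, the NRF1 letters at 7.41% against 3.80%, and the YY1 letters at 9.88% against 4.49%.

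The summits themselves lay close to the TSS. Over the 324 promoter calls of subunit genes in TAM, the median summit was 38.5 bp upstream of the nearest TSS of the gene (quartiles −104 and −7), and 70.7% lay within 100 bp of it. For all genes, the median was 65 bp upstream and 55.7% lay within 100 bp. In EtOH, the 69 calls of subunit genes had a median of 35 bp upstream, with 68.1% within 100 bp, against 57 bp and 55.4% for all genes. The median was nearer to the TSS for subunit genes than for all genes in 10 of 11 libraries. Calls of one gene share a promoter and are not independent, and no test was made of this difference.

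**Figure D4:**
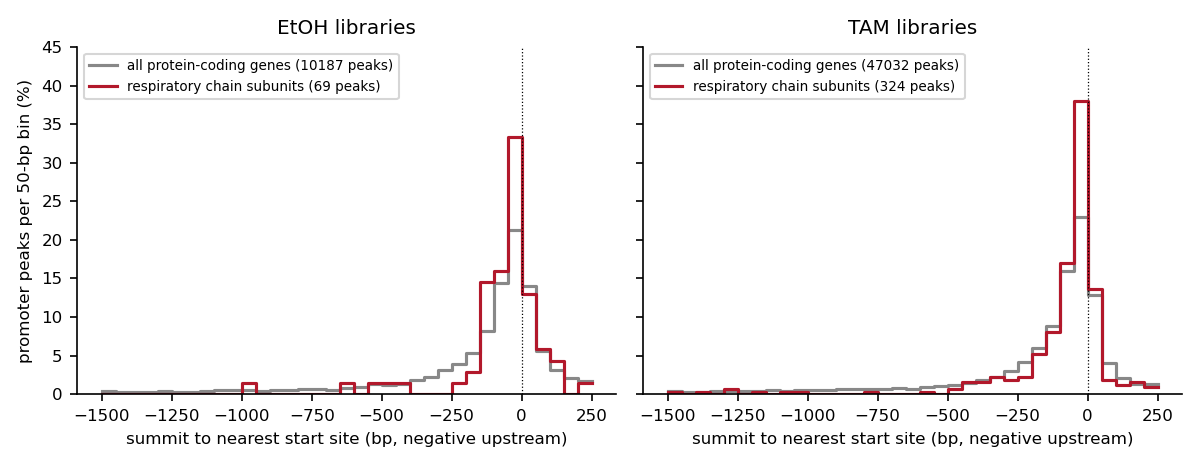
Distance from the summit to the nearest TSS of the gene (x axis, bp, negative upstream) for promoter calls in EtOH libraries at left and TAM libraries at right, in 50-bp bins (y axis, percent of calls). Red, subunit genes (69 and 324 calls); gray, all protein-coding genes (10187 and 47032 calls). The red line is higher in the bin just upstream of the TSS and lower in the 3 bins that follow 150 bp upstream.

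Summits of both proteins lay close together at these promoters. In TAM, a summit of S100A8-Flag and one of S100A9-Flag at the same subunit gene were a median of 42 bp apart, over 9 pairs of libraries, and those of replicates of one protein 33 bp. For all genes the distances were 60 and 57 bp. By strength, the peaks of subunit genes were in the middle of their lists. Their median percentile by fold enrichment among all peaks of q ≤ 1e-07 was 53.4 in EtOH and 59.1 in TAM, close to 55.3 and 61.5 for promoter calls of all genes, and it was above that of all promoters in 5 of 11 libraries. The fold enrichment over input at their calls ranged from 6.32 to 19.4 in EtOH and from 4.01 to 22.8 in TAM, the highest being NDUFS7 in replicate 1 of S100A9-Flag in TAM.

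Differences between EtOH and TAM were tested gene by gene, with an exact permutation test that kept the protein of every library fixed (200 arrangements, two-sided, smallest p 0.01), with Benjamini-Hochberg adjustment over all genes called in at least 2 libraries. S100A8-Flag alone could not give a p under 0.2 and S100A9-Flag alone none under 0.1, so that both proteins were tested together. Of the 10794 genes tested, 72 were subunit genes, and none of either passed at an adjusted p of 0.05, the smallest adjusted p being 0.19. As no p can be under 0.01, a gene could pass only if a large share of all genes tested had this p. It was reached by 5.27% of them, so that the adjusted test cannot decide for single genes. At an unadjusted p under 0.05, 18 subunit genes (25.0%) were called more often in TAM, where 21.0% of all genes tested were, and none was called more often in EtOH. The share among subunit genes was thus near that of all genes. With any 1 library left out, the count was 7 to 10.

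Among these 18 genes, 7 (9.72% of the 72 tested, against 5.27% of all genes tested) were called in all 6 TAM libraries and never in EtOH, with the smallest p that the permutations can give (exact p = 0.01, adjusted p = 0.19 each). They are ATP5MF and its read-through locus ATP5MF-PTCD1, NDUFB6, NDUFA11, NDUFA7, COX7A2L, and SDHC. COX7A2L is known as a factor that joins complexes III and IV, and ATP5MF and NDUFB6 are membrane subunits of complexes V and I. At NDUFB6 the −log10 q was 10.1, 18.8, and 16.8 with S100A8-Flag in TAM and 40.7, 16.7, and 20.0 with S100A9-Flag in TAM, and in EtOH peaks of 1.95 and 5.95 were listed in 1 library of each protein. At NDUFA11 all 5 EtOH libraries listed a peak, with values from 4.07 to 6.21, under the threshold. Its mean rank among all genes was 80.2 ± 6.04 in EtOH (SD, n = 5) and 78.5 ± 4.38 in TAM (SD, n = 6; exact permutation p = 0.67). NDUFA7 shares its promoter with RPS28, a ribosomal protein gene that starts 121 bp upstream on the other strand.

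The same test was made on ranks, in which each gene has the percentile of its best promoter −log10 q among all protein-coding genes of the library. Genes without a listed peak share a tied rank, which is 30.4 to 38.9 in EtOH and 17.9 to 23.5 in TAM, so that ranks too depend on the length of a list. Of 13389 genes tested, 82 were subunit genes. The smallest possible p was reached by 3.11% of all genes tested, so that the same limit of the adjustment applies. None passed at an adjusted p of 0.05, the smallest adjusted p being 0.321, and at an unadjusted p under 0.05, 9 subunit genes ranked higher in TAM and none lower, where 7.25% of all genes ranked higher and 1.87% lower. Without S100A8-Flag EtOH replicate 2 the count was 3. Each of the 9 had no listed peak in at least 3 of the 5 EtOH libraries. The 9 include NDUFV1, ATP5MF, NDUFB6, UQCRC2, ATP5MC3, UQCRH, ATP5PB, and ATP5MK. In the libraries that called them, the best summit was nearer to LRRC41 in 4 of 4 for UQCRH and to WDR77 in 4 of 4 for ATP5PB. For ATP5MK it was nearer to PDCD11 in 2 of 3.

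The largest rank differences were those of ATP5MF, repeated at its read-through locus, and NDUFV1. For ATP5MF the mean rank was 91.7 ± 8.98 with TAM (SD, n = 6) and 44 ± 24.1 with EtOH (SD, n = 5; exact permutation p = 0.02, adjusted p = 0.414), and the groups overlapped, since replicate 1 of S100A8-Flag in EtOH ranked at 86.7 and replicate 3 of S100A8-Flag in TAM at 74.2. The mean rank of NDUFV1 went from 46.4 ± 28.8 with EtOH (SD, n = 5) to 91.2 ± 3.34 with TAM (SD, n = 6; exact permutation p = 0.04, adjusted p = 0.438), and the groups overlapped, since it ranked at 97.5 in replicate 1 of S100A9-Flag in EtOH. At UQCRC2, with 33.3 ± 3.29 in EtOH and 76.8 ± 10.4 in TAM, the groups did not overlap (exact permutation p = 0.01, adjusted p = 0.321), and its EtOH ranks are all those of genes with no listed peak. A lower mean rank in TAM than in EtOH was seen at COX6C, which ranked from 93.2 to 99.8 in EtOH and at 45.7 and 50.3 in replicates 1 and 3 of S100A8-Flag in TAM, with the other 4 TAM libraries from 91.3 to 98.5 (exact permutation p = 0.08). Without adjustment this did not reach 0.05.

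**Figure D5:**
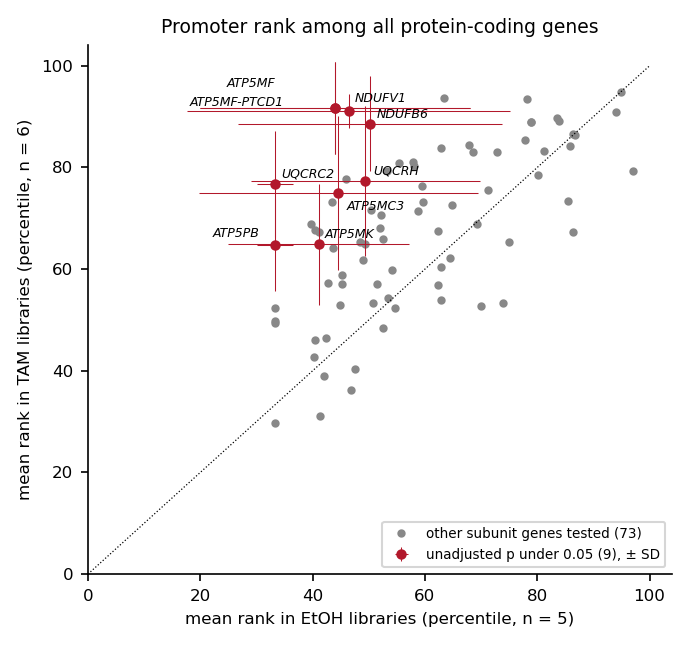
Mean rank of the best promoter peak among all protein-coding genes in EtOH libraries (x axis, percentile, n = 5) and TAM libraries (y axis, percentile, n = 6) for the 82 subunit genes tested. Red, the 9 genes with an unadjusted p under 0.05, with the SD over libraries as bars; gray, the other 73; dotted line, equal ranks. The red points lie above the line at EtOH ranks between 33.3 and 50.3, where ranks of genes without a listed peak enter the mean.

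No difference between S100A8-Flag and S100A9-Flag was detected at any subunit gene. In the exact permutation test of the proteins within each treatment (200 arrangements, two-sided, calls), 0 of the 72 subunit genes tested passed at an adjusted p of 0.05 (smallest adjusted p over all genes 1.0) and 0 at an unadjusted p under 0.05, where 0.0556% of all genes were called more often with S100A9-Flag and 0.0741% less often. A test of whether the treatment difference itself differed between the proteins, by exact permutation, found no subunit gene at an adjusted p of 0.05 or at an unadjusted p under 0.05, and 40 of all genes at the latter. With so few libraries, an unadjusted p under 0.05 in the tests of calls required a nearly complete difference. Even complete differences in the treatment test of calls (exact permutation p = 0.01) had an adjusted p of 0.19.

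Other genes of the respiratory chain, which the naming rule did not take in, had mean shares above those of the subunit genes, with ranges over libraries that overlapped. The list of 50 assembly factors, which insert cofactors and join subunits, was called at 23.6% ± 6.99 in EtOH and 71.0% ± 6.03 in TAM, with 17 genes in each TAM library and 1, ATPAF1, in none. By the treatment test of calls, 8 of the 47 tested were higher in TAM and 0 lower at an unadjusted p under 0.05, against 21.0% of all genes tested, and 0 passed at an adjusted p of 0.05. COX20 and TACO1, needed for the assembly and translation of complex IV subunits, were called in 10 libraries each. The 9 carriers and remaining subunits, such as CYCS (cytochrome c, 7 libraries) and CYC1 (cytochrome c1, 7 libraries), were called at 22.2% ± 15.7 and 77.8% ± 17.2, and 1 of them was higher in TAM at an unadjusted p under 0.05.

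The 15 regulators of mitochondrial biogenesis were called at 26.7% ± 14.9 in EtOH and 82.2% ± 8.07 in TAM, with 8 genes called in each TAM library. Of the 14 tested, 5 were higher in TAM at an unadjusted p under 0.05, 0 lower, and 0 at an adjusted p of 0.05, where again 21.0% of all genes tested were higher. GABPB1, a subunit of the ETS factor GABP, was called in 10 libraries, TFB2M, a transcription factor of mitochondrial DNA, in 9, and TFAM, which packages that DNA, in 8. The promoter of NRF1 itself was called in 5 TAM libraries and in no EtOH library. A peak of any q was listed there in all 11 libraries, however, so that its EtOH peaks lay under the threshold. That of the coactivator PPARGC1A, which is active mainly in muscle, brown fat, and liver, was called in 1 library.

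As a check of the cell type, promoters of 9 genes that mark basal mammary epithelium were called at 15.6% ± 6.09 in EtOH and 61.1% ± 9.30 in TAM. For all genes, the shares were 10.1% ± 2.48 and 39.0% ± 5.43. Of the 9, 7 were called in at least 1 library, among them KRT5, KRT14, KRT17, EGFR, and LAMB3, whereas CDH1 and TP63 were not. Of all genes, 38.9% were called in none. Among genes that mark leukocytes or fibroblasts, COL1A1 was called, in 7 libraries, and PTPRC, CD3E, and PDGFRB in none, while PECAM1 was not matched. A promoter peak of an S100 protein is not a measure of expression. This check rests on binding alone and, with subunit genes at 61.4% in TAM, does not identify the cell type.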

How the data were processed

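Flag ChIP libraries of MCF-10A–ER-Src cells were grouped by the labels into S100A8-Flag EtOH (n = 2), S100A8-Flag TAM (n = 3), S100A9-Flag EtOH (n = 3), and S100A9-Flag TAM (n = 3). Bowtie2 was used by the authors for alignment to hg19, reads mapping to more than 1 place were discarded, and MACS2 then called narrow peaks separately for every library, with its own input as background. Versions are not given in the sources used here. The deposited lists hold, for each peak, a fold enrichment over input (a ratio) and a −log10 q value from MACS2, as the authors deposited them, and reach down to q = 0.05. They hold no read numbers, so that the depth is unknown, precision is set by the number of libraries, and no interval that needs counts is given. Replicates are labeled biological, with no further detail of the cultures.

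Protein-coding genes, the starts of their protein-coding transcripts, and sequences were taken from GENCODE 44 lifted to GRCh37 (hg19) and that genome, with Python 3.11.15, numpy 2.4.6, pandas 2.3.3, and scipy 1.17.1. The 88 genes, the gene lists, and the tests were chosen with earlier results of these data known. Calls used q ≤ 1e-07 and a summit at most 1500 bp before or 250 bp after a TSS, and a peak counts for every gene with a TSS in reach. Calls and ranks were compared by exact permutation of libraries, two-sided by doubling the smaller tail, adjusted by the Benjamini-Hochberg method over all genes tested. The assignment and the test were tested on simulated data. Unchanged genes there had equal call rates in all libraries, so that lists of unequal length were not simulated. Genes named are those called in most libraries or in none, core and complex II genes, c-ring genes, paralogs, genes past a test, and those at the threshold; UQCRFS1, ATP5MJ, ATP5F1B, NDUFB4, and NDUFB7 were added after their values were seen. Alternatives were every deposited peak, q ≤ 1e-10, equal numbers of peaks, other TSSs and windows, replicate rules, the omission of each library, a replicate block, and other ranks. Individual values of 1 subunit gene, 1 marker, and 1 upstream sequence are not reported here.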

Additional observations from a re-analysis of the deposited data

How the results depend on the processing

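Under every deposited peak, 40.0 subunit genes were called per EtOH library and 74.3 per TAM library, and 24, 76, and 37 had peaks in at least 2 replicates of S100A8-Flag in EtOH, S100A8-Flag in TAM, and S100A9-Flag in EtOH, with median percentiles of 1.86 in EtOH and 38.0 in TAM. With q ≤ 1e-10, the means were 5.80 and 38.7, and 9 genes passed the treatment test unadjusted. In at least 2 EtOH replicates, 2 and 1 genes were called with S100A8-Flag and S100A9-Flag. The percentiles were 83.9 and 74.6. With equal numbers of peaks, the means were 7.80 and 8.33, the replicated genes 2, 4, 3, and 7, and 0 genes passed the treatment test unadjusted. With the 5′ end of the gene only, the TAM mean was 40.7, and 11 genes passed unadjusted. In at least 2 replicates of S100A8-Flag in EtOH, 3 genes were called. With the nearest TSS only, the TAM mean was 40.2. In at least 2 replicates of S100A9-Flag, 3 genes were called in EtOH and 43 in TAM. For at least 1 replicate, 30 and 25 genes were found in EtOH with S100A8-Flag and S100A9-Flag, against 18.9 and 20.4% of all genes. For every replicate, 27, 2, and 39 were found in S100A8-Flag TAM, S100A9-Flag EtOH, and S100A9-Flag TAM libraries, against 19.1, 1.08, and 26.0% of all genes. Shares of all genes under q ≤ 1e-10, the 5′ end, and the nearest TSS are not given here, so that those counts cannot be set against all genes. By q value, the median TAM percentile was 69.8. Within 100 bp of summits, the NRF1 letters were found at 7.41% of called subunit genes.

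When each library was left out in turn, the mean number of called genes ranged from 51.0 to 56.6 in TAM, and from 12.8 to 16.0 in EtOH. Replicated genes numbered 6 for S100A8-Flag and 2 to 6 for S100A9-Flag in EtOH, and 31 to 48 and 40 to 65 in TAM. The count of 18 genes with an unadjusted p under 0.05 in the treatment test of calls became 7 to 10 whichever library was omitted, and that of 9 in the rank test 3 to 9, the lowest without S100A8-Flag EtOH replicate 2. The median percentile ranged from 54.4 to 62.2 in TAM, and from 50 to 61.2 in EtOH. The cause was not tested for any of these, beyond what each alternative changes by its construction.

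Libraries with the same replicate number did not deviate together (correlations of −0.0164 to 0.0188 over 5 pairs). With the replicate number as a block, 0 genes passed the test of calls or of ranks without adjustment, since 5 pairs allow no exact p under 0.0625. An adjusted p under 0.05 was not reached by any subunit gene in any of these alternatives, in which the smallest possible p again limits what the adjustment can reach.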
